A study of Mus musculus with 15 samples.

Results

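Microglia sorted from old mice given PLX5622 were compared with microglia sorted from young mice, using the 4 PLX5622 libraries and the 3 young libraries of a series of 15. The PLX5622 libraries came from 18-month-old mice treated with that compound, and the young libraries from 3-month-old mice that received no treatment. The other libraries of the series are untreated, from 18-month-old mice, and were sorted for high autofluorescence (AF-high, n = 5) or low autofluorescence (AF-low, n = 3). For some of the genes described, they are set beside the comparison near the end of the Results. The other genes are described without them. The 2 groups compared differ in both age and treatment, so that an effect of age and an effect of the compound cannot be told apart in this comparison. The labels give neither strain nor sex, and do not say whether a library holds 1 animal or a pool. The sources used here do not give the dose and schedule of PLX5622, the sort markers, any autofluorescence gate on the young and PLX5622 cells, or the time between the last dose and the sort. It is therefore not known whether the cells measured had survived the compound, had grown back after it, or both.

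Microglia are the resident macrophages of the brain, and their survival depends on signals through the CSF1 receptor. PLX5622 is an inhibitor of that receptor which, fed to mice, removes a large part of the microglia, and the niche refills from surviving cells once feeding stops. In aged, injured or plaque-bearing brain, microglia are known to raise a set of disease-associated genes such as Spp1, Cst7, Axl and Itgax, and in the aged brain also genes that answer to type I interferon, while genes that mark resting microglia, such as P2ry12 and Tmem119, fall in many disease settings.

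Levels are given in TPM, the share of a library's transcripts that a gene contributes, adjusted for gene length and scaled to a common total. Changes are differences of log2(TPM + 1) between the group means, PLX5622 minus young, with the standard error (SE) from a limma model of the 7 libraries, and a fold is 2 to the power of that difference. On that scale the change of a gene with few TPM is understated. A gene was called when its adjusted p (Benjamini-Hochberg, over all 12884 genes tested) was under 0.05. Means are given with their SD over n = 4 PLX5622 and n = 3 young libraries. Fewer cells with a transcript and less of it per cell cannot be told apart in such bulk libraries.

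The label of microglia held in all 7 libraries. Among the marker genes, P2ry12 ranged from 1785 to 2718 TPM, Tmem119 from 495.2 to 650.6 TPM and Csf1r from 905.8 to 1293 TPM. Cx3cr1 ranged from 339.2 to 497 TPM, Siglech from 806.5 to 1031 TPM, C1qa from 650.9 to 1011 TPM and the transcription factor Sall1 from 103.6 to 147.4 TPM. The root mean square deviation from the group mean over genes, on the log2 scale, was 0.28 to 0.316 in young and 0.288 to 0.305 in PLX5622 libraries, against 0.407 to 0.626 in the AF-high and AF-low libraries. Young 1 and young 2 stood apart from the other 5 libraries in genes of other brain cells. The choroid plexus gene Ttr was at 7770 TPM in young 1, 5084 TPM in young 2 and 175.7 TPM in young 3, and at 113.7 to 177 TPM in the PLX5622 libraries. Transcripts of 12 numbered gene models that resemble satellite repeats took 11.2%, 0.64% and 2.02% of the TPM of young 1, 2 and 3 and 7.97% to 14.1% in the PLX5622 libraries. All other genes share what is left of the total, and the median change of all genes tested was -0.12, with 30.4% of them above 0.

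Of 12884 genes tested, 65 (0.505%) differed, 44 of them higher in the PLX5622 libraries (0.342%) and 21 lower (0.163%). At an unadjusted p under 0.05, 452 were higher (3.51%) and 1773 lower (13.8%). These shares of all genes, and those of the calls, are the background for the counts given for each list below. The groups did not overlap in 16.2% of all genes tested, with 3.3% higher and 12.9% lower, and in each of the 65 called genes. The calls were 67.7% higher against lower as deposited, and 86.5% higher when each library was first centred on its median gene, which moved the median change of all genes from -0.12 to 0.01 and gave 77 higher and 12 lower. With no overlap, the sign of a called gene could not turn with any 1 of the 7 libraries left out, so that its being kept tells nothing further. The number of calls changed, with 46 without young 1, 17 without young 2, 115 without young 3, and 23 to 34 with 1 PLX5622 library left out. Called in each of these 7 smaller comparisons were 15 genes, namely Cxcl13, Spp1, Cst7, Pdcd1, Axl, St8sia6, Hcar2, Clec7a, Oas1a, Ly9, Bcl2a1a, C920009B18Rik, Cd52 and Naalad2, all higher, and Sema6d, lower. In the limma model of all 15 libraries, whose AF-high and AF-low libraries scatter more, Cxcl13, Spp1, Cst7, Hcar2, Ly9 and Sema6d were still called, while the other 9 of these 15 were not, at an adjusted p of 0.0509 for St8sia6, 0.053 for Naalad2, 0.0582 for Bcl2a1a, 0.0877 for Axl, 0.124 for C920009B18Rik, 0.146 for Clec7a, 0.273 for Cd52, 0.354 for Pdcd1 and 0.502 for Oas1a. With young 1 and 2 both left aside, limma gave 13 genes higher and 0 lower, on the assumption that the single young library varies like the PLX5622 libraries.

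**Figure D1:**
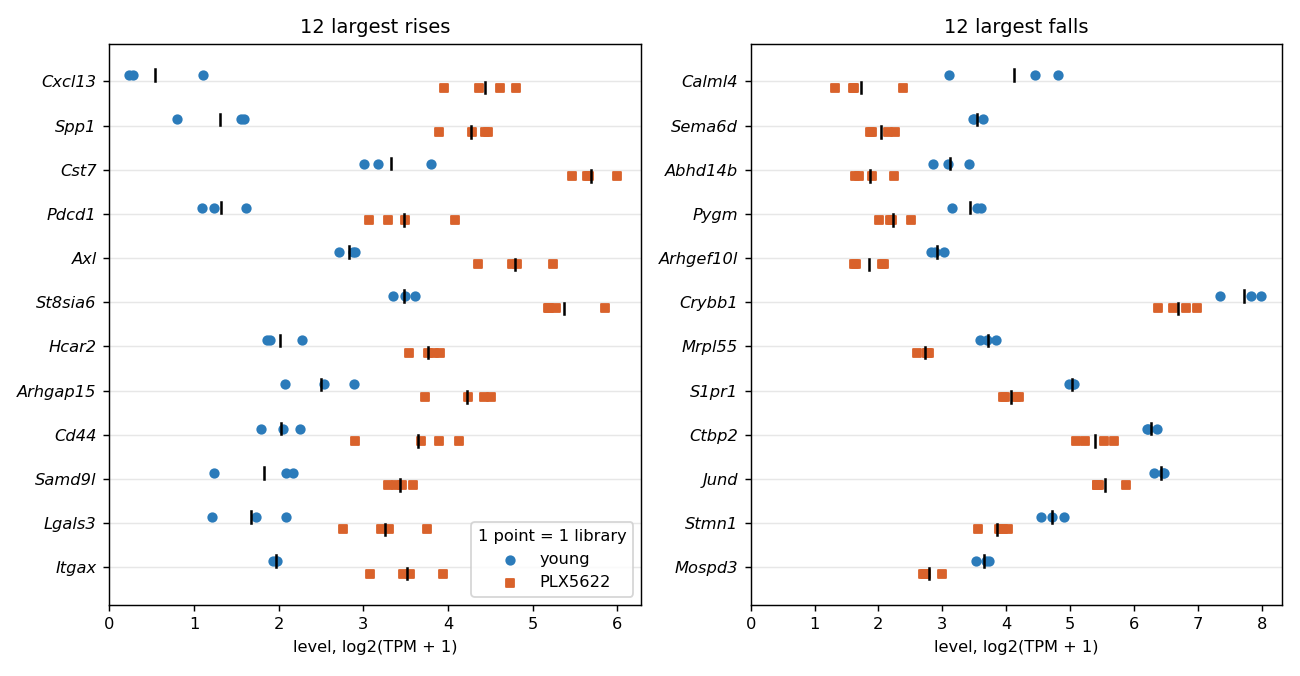
Levels, as log2(TPM + 1), of the 12 genes with the largest rises and the 12 with the largest falls in each young library (circles) and each PLX5622 library (squares), with the group mean as a vertical bar. The groups do not overlap for any of them, which the choice of genes required, and the Calml4 levels of the young libraries are the most spread of the falls.

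Several disease-associated microglial genes rose. Of 32 measured members of a list of such genes, 8 rose and none fell, with a median change of 0.36 over the list against -0.12 over all genes. Of all genes tested, 0.342% were called higher and 0.163% lower. The 8 were Spp1, Cst7, Axl, Lgals3, Itgax, Clec7a, Cd52 and Lpl. Their products are a secreted matrix protein, a protease inhibitor, a receptor for dying cells, a galectin, an integrin, a receptor for fungal glucans, a small surface glycoprotein and a lipase.

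Spp1 encodes osteopontin, a matrix protein that cells also secrete as a cytokine, and lies at chr5:104435118-104441050 on the plus strand (GRCm38). Its level was 0.741, 1.93 and 2.01 TPM in young 1 to 3 and 20.7, 18.5, 13.9 and 21.2 TPM in PLX5622 1 to 4. All PLX5622 libraries were far above the young, and the change was 2.96 ± 0.23 (SE), 7.78-fold, with an adjusted p of 0.000917. Cst7, on chr2:150570415-150578944, encodes cystatin F, an inhibitor of lysosomal cysteine proteases. It was at 7.05, 8.02 and 12.9 TPM in the young libraries and at 62.7, 48.9, 43 and 49.8 TPM in the PLX5622 libraries, a change of 2.36 ± 0.2 (adjusted p = 0.00132). The lowest PLX5622 library was thus above the highest young one by more than the whole range of the young. Axl, on chr7:25757273-25788705, encodes a receptor tyrosine kinase that recognises dying cells through bridging proteins. Young libraries had 5.54, 6.38 and 6.48 TPM and PLX5622 libraries 36.9, 19.5, 27.2 and 26.1 TPM, a change of 1.96 ± 0.2 (adjusted p = 0.00301). The young libraries lay within 1 TPM of each other and PLX5622 1 was the highest.

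Clec7a encodes dectin-1, the receptor for fungal glucans, and was among the most even of the rises. The young libraries were at 13.9, 13.2 and 15.3 TPM and the PLX5622 libraries at 44.6, 42.9, 40 and 39.3 TPM, a change of 1.5 ± 0.11 (adjusted p = 0.000917). Cd52, a small glycoprotein of leukocyte surfaces, was at 88.5, 95.3 and 92.3 TPM in young and at 193.9, 217.2, 203.6 and 190.3 TPM in PLX5622 libraries, 2.17-fold higher (adjusted p = 0.000917). In both genes the PLX5622 libraries differed among themselves by far less than from the young. Itgax encodes the integrin CD11c, which marks an activated subset of microglia as well as dendritic cells. It was at 2.92, 2.96 and 2.83 TPM in young and at 14.3, 10.8, 7.46 and 10.1 TPM in PLX5622 libraries, a change of 1.55 ± 0.2 (adjusted p = 0.0155, and 0.0745 without young 2). Of 12 measured dendritic cell markers Itgax was the only one called. The list's mean level was 3.06 to 3.17 in young and 3.13 to 3.18 in PLX5622 libraries on the log2 scale, and Flt3, a defining marker, was at 0.984 to 1.86 TPM in all 7.

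The remaining members of the list rested on smaller margins. Lpl, the enzyme that frees fatty acids from lipoproteins, was at 34.7, 31.9 and 32.6 TPM in young and at 69.4, 55.5, 50.6 and 52.7 TPM in PLX5622 libraries (1.69-fold, adjusted p = 0.0414). Lgals3, which encodes galectin-3, was at 2.33, 3.26 and 1.31 TPM in young and at 8.26, 12.5, 5.76 and 8.88 TPM in PLX5622 libraries (2.98-fold, adjusted p = 0.0464). Both were higher in every PLX5622 library than in any young one, and neither was called with any 1 library left out, with an adjusted p of 0.0648 to 0.181 for Lpl and 0.0618 to 0.115 for Lgals3. The lipoprotein gene Apoe was at 407.3 ± 53.5 TPM in young and 620.1 ± 145.4 TPM in PLX5622 libraries and was not called (0.59 ± 0.17, adjusted p = 0.156). Trem2, the receptor that many of these genes depend on in disease models, was at 508.9 ± 37.7 and 510.3 ± 39.8 TPM, a change of 0.00 ± 0.1. Cd68, a lysosomal membrane protein of phagocytes, was at 899.3 ± 45.8 and 931.7 ± 59.7 TPM and likewise not called (adjusted p = 0.823).

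The list of neutrophil markers moved in the same direction. Its mean over 5 measured genes was 3.07 to 3.19 in young and 3.33 to 3.78 in PLX5622 libraries on the log2 scale, an exact two-sided permutation p of 0.0571, the smallest that 4 against 3 libraries can give (0.171 adjusted over 15 such measures). None of the 5 was called and 1 was higher at an unadjusted p under 0.05, against 3.51% of all genes tested. Mpo was at 0.671 to 1.12 TPM in young and 1.32 to 2.49 TPM in PLX5622 libraries, and Il1r2 reached 8.87 TPM in PLX5622 3. Hdc had a mean of 1.35 TPM in young and 1.92 TPM in PLX5622 libraries. The more abundant members barely moved, with Csf3r at a mean of 241.9 and 239.1 TPM and Cxcr2 at 18.3 and 19.3 TPM. Only 5 of the 18 markers listed were in the file. Monocyte markers had a mean of 3.70 to 4.43 in young and 3.88 to 4.07 in PLX5622 libraries, and Ccr2 was at 5.02 to 7.08 and 4.71 to 7.2 TPM. Lyz2, which microglia, monocytes and neutrophils all express, was at 320.3 ± 15.1 TPM in young and 527.9 ± 87.2 TPM in PLX5622 libraries (adjusted p = 0.0534). The part of such cells in the rises was not tested.

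Cxcl13 had the largest change of all called genes. It encodes a chemokine that attracts B cells through the receptor CXCR5 and lies at chr5:95956951-95961068 on the plus strand. The young libraries were at 1.16, 0.217 and 0.172 TPM and the PLX5622 libraries at 27, 14.5, 23.4 and 19.5 TPM, a change of 3.89 ± 0.27 (14.9-fold, adjusted p = 0.000917). The gene was under 1 TPM in young 2 and young 3 and well above that in all 4 PLX5622 libraries. It was the only one of 18 measured chemokines called, and 0.342% of all genes tested were called higher. Of the 18, 13 had a positive change, against 30.4% of all genes tested, and the list median was 0.25 against -0.12. The abundant chemokines Ccl3 and Ccl4, chosen with their values known, were not called. Ccl3 was at 4676 to 5364 TPM in young and 5630 to 7356 TPM in PLX5622 libraries (adjusted p = 0.249), and Ccl4 at 2132 to 2553 and 2706 to 3004 TPM (adjusted p = 0.216). The mean of 7 B cell markers was 4.05 to 4.15 in young and 3.84 to 4.1 in PLX5622 libraries on the log2 scale.

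Some receptors and ligands that tune immune cells also rose. Among 37 costimulatory and inhibitory molecules 4 rose and none fell, against 0.342% and 0.163% of all genes tested, with a median change of 0.13. Pdcd1 encodes PD-1, an inhibitory receptor best known from exhausted T cells. It was at 1.14, 2.07 and 1.36 TPM in young and at 15.9, 7.39, 10.3 and 8.77 TPM in PLX5622 libraries, a change of 2.17 ± 0.25 (adjusted p = 0.00713). Even the lowest PLX5622 library was above all young libraries. T and NK cell markers had a mean of 2.61 to 2.9 in young and 2.57 to 3.17 in PLX5622 libraries on the log2 scale, and Cd3d, part of the T cell receptor complex, was at 4.16 to 8.94 and 4.09 to 7.83 TPM. Ly9, a self-binding receptor of the SLAM family, was at 10.1, 7.79 and 9.3 TPM in young and at 19.8, 20.9, 21.6 and 21.4 TPM in PLX5622 libraries (2.19-fold, adjusted p = 0.00713). Its PLX5622 libraries lay within a narrow band at more than the highest young level.

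Tnfsf8, the ligand of CD30, was under 1 TPM in all young libraries, at 0.91, 0.189 and 0.742 TPM, and was at 4.24, 3.12, 2.82 and 2.44 TPM in PLX5622 libraries (1.38 ± 0.22, adjusted p = 0.0414). Lilrb4a, an inhibitory receptor of myeloid cells, was at 87.5, 110.5 and 111.7 TPM in young and at 200.3, 169.1, 165.5 and 198 TPM in PLX5622 libraries (0.82 ± 0.12, adjusted p = 0.0274). Both were higher in all PLX5622 libraries. Each kept its call with young 3 left out and lost it with any other library left out, at an adjusted p of 0.0579 to 0.151 for Tnfsf8 and 0.0502 to 0.0909 for Lilrb4a.

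Other genes with large rises stood outside the lists. St8sia6, which adds sialic acid to glycans, was at 9.23, 10.2 and 11.2 TPM in young and at 56.6, 37.6, 35.4 and 35.4 TPM in PLX5622 libraries (1.89 ± 0.18, adjusted p = 0.00237). Hcar2 encodes the receptor for niacin and the ketone body beta-hydroxybutyrate. It was at 2.64, 3.85 and 2.72 TPM in young and at 13.9, 10.6, 13.2 and 12.6 TPM in PLX5622 libraries (1.75 ± 0.17, adjusted p = 0.0027). For both the PLX5622 libraries were at least 2 times the highest young library. Arhgap15, a regulator of the GTPase Rac1, was at 4.81, 6.42 and 3.21 TPM in young and at 21.8, 12.3, 20.5 and 17.9 TPM in PLX5622 libraries (adjusted p = 0.0224, and 0.0585 to 0.0778 without young 1 or PLX5622 1, 3 or 4). Cd44, the hyaluronan receptor, was at 3.77, 2.46 and 3.15 TPM in young and at 13.9, 6.44, 11.8 and 16.4 TPM in PLX5622 libraries (adjusted p = 0.0464). Its call was kept without PLX5622 2 and lost without any other library (0.0647 to 0.197).

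The other called genes, which were named once their values were known, included 2 near-identical survival genes of the Bcl2a1 cluster. Bcl2a1a was at 21.8 ± 1.03 TPM in young and 57 ± 6.35 TPM in PLX5622 libraries (adjusted p = 0.00132), and Bcl2a1d at 15.1 ± 1.22 and 38.9 ± 7.92 TPM (adjusted p = 0.00884, and 0.051 without young 2). Reads shared between them make their separate values uncertain. Vcam1, an adhesion molecule, was at 16.5 ± 3.42 TPM in young and 42.8 ± 9.76 TPM in PLX5622 libraries (adjusted p = 0.0309). Tnfsf13b, which encodes the B cell survival factor BAFF, was at 27.3 ± 4.31 and 58.4 ± 8.41 TPM (adjusted p = 0.019). Both rose, and both lost the call without young 1, young 2 or PLX5622 1. Vcam1 also lost it without PLX5622 3 or 4 (0.0579 to 0.087 over the 5), and Tnfsf13b without PLX5622 2 (0.0502 to 0.0828 over the 4). Naalad2, a peptidase, was at 30 ± 3.65 and 63.6 ± 2.78 TPM (adjusted p = 0.00368). Ildr2, an immunoglobulin-like membrane protein, was at 7.66 ± 0.18 and 17.1 ± 1.35 TPM (adjusted p = 0.00884, and 0.0532 without young 2).

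A stretch of chromosome 10 held 3 of the called genes. H60b, a ligand of the NK receptor NKG2D, lies at chr10:22158586-22288849, the pseudogene Hmgb1-ps8 at chr10:22262742-22263367 and C920009B18Rik at chr10:22306702-22321765. C920009B18Rik was at 22.7, 19 and 20.9 TPM in young and at 42.8, 44.6, 45.3 and 47.8 TPM in PLX5622 libraries (1.08 ± 0.11, adjusted p = 0.00291). H60b was at 8.03 ± 0.56 and 15.7 ± 2.16 TPM (adjusted p = 0.0414), and Hmgb1-ps8 at 10.4 ± 1.68 and 22.1 ± 4.38 TPM (adjusted p = 0.0496). All 3 were higher in the PLX5622 libraries. The pseudogene lies within the span of H60b, so that reads of the 2 may have been split between them. H60b was not called with any 1 library left out (0.0529 to 0.192), and Hmgb1-ps8 only without young 3 or PLX5622 2 (0.0912 to 0.224 for the other 5).

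Several genes that answer to type I interferon rose as well. Interferon acts through a receptor on the cell surface, many of its target genes carry a doubled GAAA element, and their products restrict viruses. Of 61 measured genes, 5 rose and none fell, 51 had a positive change, and the list median was 0.29 against -0.12 for all genes. Of all genes tested, 0.342% were called higher and 30.4% had a positive change. The 5 were Samd9l, Oas1a, Ifi209, Ifi204 and Ifi207. The most negative of the list, Ifitm2, named after its value was seen, had a change of -0.56 and was not called.

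Samd9l encodes a growth-restraining antiviral protein and lies at chr6:3372257-3399572 on the minus strand. It was at 3.51, 3.23 and 1.35 TPM in young and at 8.82, 9.44, 11 and 9.99 TPM in PLX5622 libraries, a change of 1.60 ± 0.23 (adjusted p = 0.0251). Oas1a, at chr5:120896256-120907521 on the minus strand, makes the oligoadenylate signal that activates RNase L. It was at 3.38, 4.29 and 3.39 TPM in young and at 12.2, 13.1, 9.65 and 13.4 TPM in PLX5622 libraries, a change of 1.48 ± 0.16 (adjusted p = 0.00605). Both had PLX5622 levels of more than 2 times the highest young level. Samd9l was not called without young 2 or without any 1 PLX5622 library (0.0551 to 0.0872).

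Ifi204, Ifi207 and Ifi209 belong to the AIM2-like receptors, relatives of a DNA sensor, and lie in a cluster on chromosome 1. Ifi209, at chr1:173630917-173647928, was at 3.4, 2.9 and 2.16 TPM in young and at 8.08, 5.86, 8.59 and 8.3 TPM in PLX5622 libraries (2.28-fold, adjusted p = 0.0378). Ifi204, at chr1:173747293-173766943, was at 32.6, 19.3 and 25.5 TPM in young and at 56.8, 43.2, 61.4 and 61.8 TPM in PLX5622 libraries (2.15-fold, adjusted p = 0.0458). Ifi207, at chr1:173723427-173741747 and named after its value was seen, was at 15.4 ± 0.93 and 29.1 ± 5.52 TPM (adjusted p = 0.0496). All 3 were higher in the PLX5622 libraries. Their sequences are alike, and the share of reads assigned to each is uncertain. Ifi207 was not called with any 1 library left out (0.0632 to 0.224), Ifi204 only without young 1 or PLX5622 2 (0.0639 to 0.151 for the other 5), and Ifi209 only without PLX5622 2 (0.0553 to 0.135 for the other 6).

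The promoters of the interferon list were read as a description only, for a motif set with the list. In the 250 bases before the RefSeq start (GRCm38.p6), a motif of 2 copies of GAAA on the same strand with any 2 bases between them, searched on both strands, occurred in 21 of the 46 list members that had a promoter entry (45.7%), against 3.57% of all tested genes with one. Of the 5 called genes, the entries of Oas1a and Ifi207 held it, those of Samd9l and Ifi209 did not, and Ifi204 had no entry. The list members with the motif had a median change of 0.24 and those without it 0.28. The sequences follow 5′ to 3′ on the strand of the gene, ending at the base before the start, with motif matches in capitals. The 2 matches in Oas1a overlap and begin 20 and 14 bases before the start, the one in Ifi207 begins 41 bases before it, and Samd9l is shown for contrast.
Oas1a (chr5:120907526-120907775, minus strand): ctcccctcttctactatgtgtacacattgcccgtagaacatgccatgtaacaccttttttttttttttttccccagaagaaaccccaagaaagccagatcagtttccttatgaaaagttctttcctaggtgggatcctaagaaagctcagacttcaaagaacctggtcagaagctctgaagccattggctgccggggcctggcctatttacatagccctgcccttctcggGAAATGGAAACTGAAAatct
Ifi207 (chr1:173741810-173742059, minus strand): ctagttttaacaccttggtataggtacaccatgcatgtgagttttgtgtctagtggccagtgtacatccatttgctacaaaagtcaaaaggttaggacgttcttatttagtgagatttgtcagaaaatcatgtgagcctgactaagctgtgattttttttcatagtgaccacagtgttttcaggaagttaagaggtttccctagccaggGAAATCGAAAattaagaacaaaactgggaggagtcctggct
Samd9l (chr6:3399572-3399821, minus strand): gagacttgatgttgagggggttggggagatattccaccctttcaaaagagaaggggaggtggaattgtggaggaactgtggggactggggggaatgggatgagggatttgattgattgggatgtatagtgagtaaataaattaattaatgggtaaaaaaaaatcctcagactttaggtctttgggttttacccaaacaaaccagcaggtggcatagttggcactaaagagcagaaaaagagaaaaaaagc

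Of 37 measured inflammatory cytokine and NF-kappaB pathway genes, 1 rose and none fell, against 0.342% and 0.163% of all genes tested. At an unadjusted p under 0.05, 8 were higher and 1 lower, against 3.51% and 13.8% of all genes tested. The list median was -0.01, and 30 of the 37 lay above the median of all genes (-0.12). Tnf, the cytokine tumour necrosis factor, was at 182.7, 194 and 190.6 TPM in young and at 382.1, 316.2, 359.8 and 261.7 TPM in PLX5622 libraries, a change of 0.79 ± 0.13 (adjusted p = 0.0414). All PLX5622 libraries were above the young, PLX5622 4 the least. Tnf kept its call without PLX5622 4 and lost it without any other library (0.0632 to 0.151). Cybb encodes the catalytic subunit of the phagocyte NADPH oxidase. It was at 9.4, 9.79 and 14.5 TPM in young and at 27.5, 23.3, 22.2 and 27.8 TPM in PLX5622 libraries (1.12 ± 0.17, adjusted p = 0.0301), the only called gene of 37 in a list of oxidative stress and Nrf2 genes. It stayed called without young 3 and not without any other library (0.0565 to 0.135). The list median was -0.10.

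Among 32 phagocytic and scavenger receptors, Axl and Fcgr4 rose and none fell, against 0.342% and 0.163% of all genes tested. Fcgr4 is an activating Fc receptor for immunoglobulin G. It was at 7.22, 8.82 and 6.5 TPM in young and at 16.5, 15.1, 14.2 and 13.7 TPM in PLX5622 libraries (1.87-fold, adjusted p = 0.041, and 0.0663 to 0.106 with any 1 library left out). Of the 32 changes 25 were negative, and of all genes tested 30.4% had a positive change. The list median was -0.15 against -0.12 for all genes. With the libraries centred on their median gene it was -0.03 against 0.01. At an unadjusted p under 0.05, 3 members were higher and 10 lower, against 3.51% and 13.8% of all genes tested. Of 30 pattern recognition genes Clec7a was the only one called, and of 17 complement genes Itgax.

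Genes of antigen presentation held 1 call. Of 24 measured genes of MHC class I and peptide loading, H2-Q7 rose and none fell, against 0.342% and 0.163% of all genes tested. The list median was 0.05 against -0.12 for all genes. H2-Q7 was at 82.7, 99.5 and 99.5 TPM in young and at 146.1, 151.7, 131.5 and 148.7 TPM in PLX5622 libraries (1.54-fold, adjusted p = 0.0414). It kept its call without young 3 and lost it without any other library (0.0784 to 0.134), and its sequence is nearly that of H2-Q6, so that its value is uncertain. B2m, the light chain shared by class I molecules, was at 5894 ± 149.1 TPM in young and 8461 ± 705.6 TPM in PLX5622 libraries and was not called (0.52 ± 0.14, adjusted p = 0.133). None of 6 measured MHC class II genes was called. At an unadjusted p under 0.05, 1 was higher and 1 lower, against 3.51% and 13.8% of all genes tested. Cd74, the invariant chain of class II, was at 72.7 ± 7.26 TPM in young and 53 ± 7.43 TPM in PLX5622 libraries (-0.45 ± 0.13, adjusted p = 0.153).

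**Figure D2:**
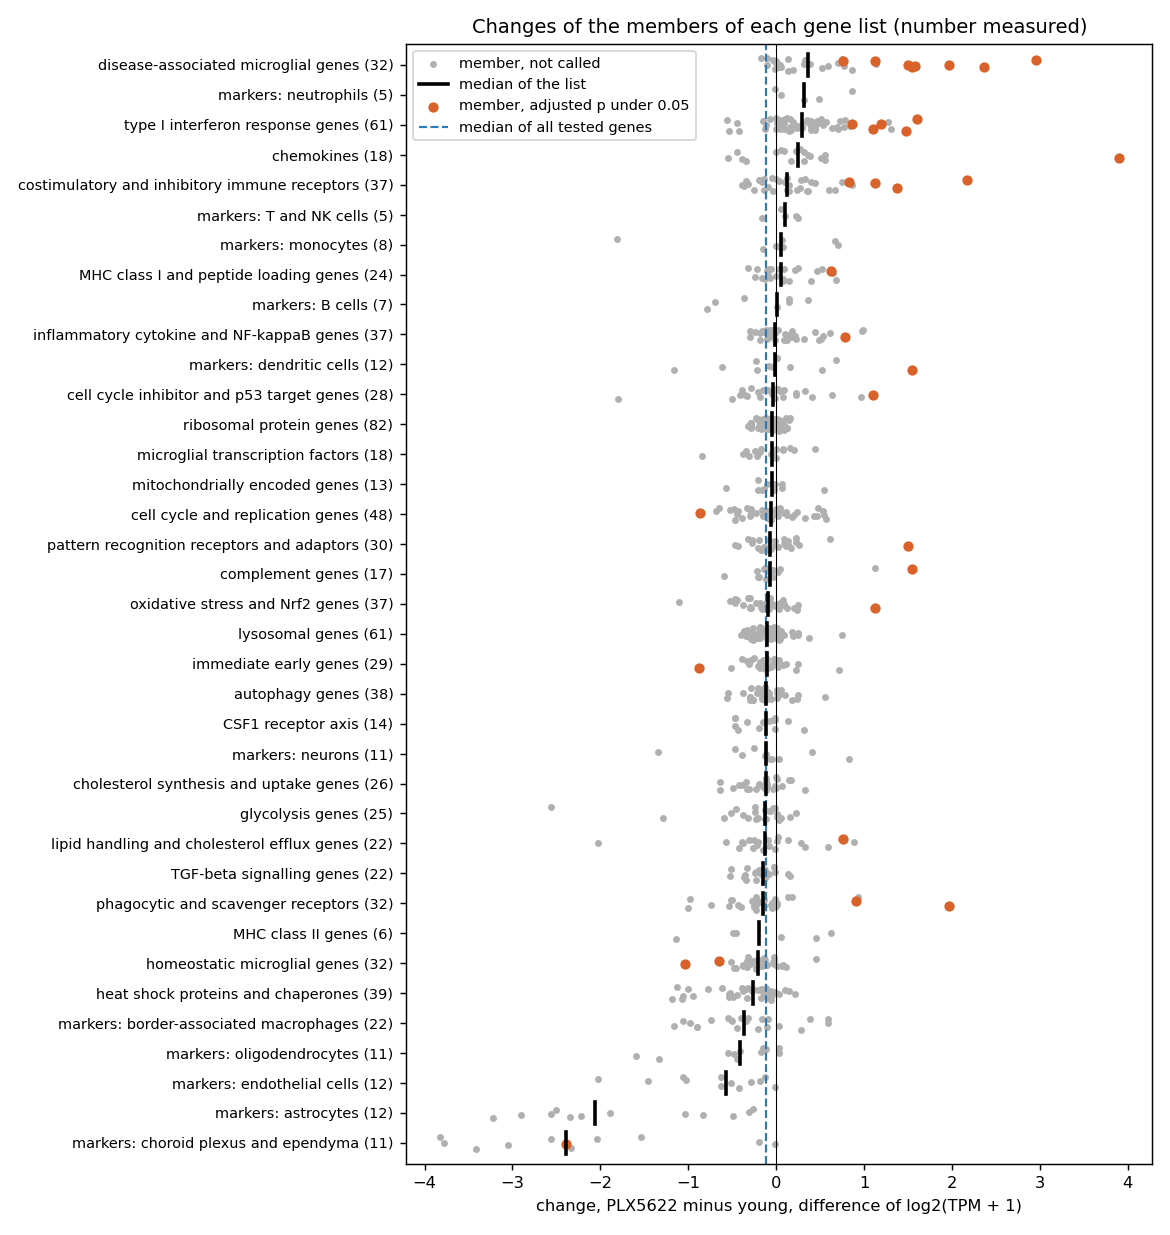
Change (PLX5622 minus young, difference of log2(TPM + 1)) of each measured member of each gene list, with called members in orange, the list median as a black bar and the median of all genes tested as a dashed line. Disease-associated, interferon, chemokine and immune receptor lists lie above the dashed line, as do the neutrophil markers and, by less, several other lists. The astrocyte and choroid plexus markers lie far below it.

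The 21 genes called lower included a guidance molecule and a lipid receptor with narrow ranges in both groups. Sema6d, at chr2:124089969-124667770, encodes a transmembrane semaphorin, a guidance and adhesion molecule. It was at 10.3, 11.5 and 10.1 TPM in young and at 2.64, 3.8, 2.73 and 3.43 TPM in PLX5622 libraries, a change of -1.5 ± 0.16 (adjusted p = 0.00517). S1pr1, a receptor for the lipid sphingosine-1-phosphate at chr3:115710433-115715072, was at 32.2, 32.4 and 30.7 TPM in young and at 14.8, 16.9, 14.5 and 17.3 TPM in PLX5622 libraries (-0.96 ± 0.12, adjusted p = 0.00884, and 0.0745 without young 2). With young 1 and 2 left aside the changes were -1.43 for Sema6d and -0.91 for S1pr1, of like size, at an adjusted p of 0.194 and 0.299.

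Jund, a member of the AP-1 family and the only called gene of 29 immediate early genes, was at 88.1, 87 and 78.6 TPM in young and at 42, 42.8, 42 and 57.6 TPM in PLX5622 libraries (-0.87 ± 0.13, adjusted p = 0.0288). Its call was kept without young 3 or PLX5622 4 and lost without any other library (0.0634 to 0.134). Stmn1 encodes stathmin, which destabilises microtubules. It was at 25.4, 28.9 and 22.3 TPM in young and at 15.3, 13.9, 10.8 and 14.4 TPM in PLX5622 libraries (-0.87 ± 0.15, adjusted p = 0.0496, and 0.0787 to 0.227 without any library but young 3). Ctbp2, a transcriptional corepressor, was at 73.1, 81.1 and 74 TPM in young and at 50.3, 36.7, 33.1 and 45.4 TPM in PLX5622 libraries (-0.88 ± 0.15, adjusted p = 0.0414, and 0.0607 to 0.192 without any library but PLX5622 1). All 3 were lower in every PLX5622 library.

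Of the 12 largest falls, 5 more had young means under 15 TPM. Pygm, the muscle form of glycogen phosphorylase, went from 9.92 ± 1.76 to 3.73 ± 0.71 TPM (adjusted p = 0.0309). Abhd14b, a hydrolase, went from 7.82 ± 1.75 to 2.71 ± 0.75 TPM (adjusted p = 0.0414), and Arhgef10l, a guanine nucleotide exchange factor, from 6.53 ± 0.55 to 2.65 ± 0.63 TPM (adjusted p = 0.0464). Mrpl55, a protein of the mitochondrial ribosome, went from 12.1 ± 1.13 to 5.65 ± 0.38 TPM (adjusted p = 0.024), and Mospd3, a protein of the endoplasmic reticulum, from 11.6 ± 0.9 to 5.97 ± 0.7 TPM (adjusted p = 0.0464). None of these 5 was called in more than 2 of the 7 smaller comparisons, and their adjusted p reached 0.0828 (Mrpl55) to 0.224 (Arhgef10l), each without young 2.

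Genes of resting microglia were mostly a little lower, and few were called. Of 32 measured homeostatic genes 2 fell and none rose, 27 changes were negative, and the list median was -0.21 against -0.12 for all genes. Of all genes tested, 0.163% were called lower and 0.342% higher, and 30.4% had a positive change. At an unadjusted p under 0.05, 14 of the 32 were lower and 1 higher, against 13.8% and 3.51% of all genes tested. The groups did not overlap in 13 that were lower and 1 that was higher, against 12.9% and 3.3% of all genes tested. Crybb1, a crystallin that marks microglia, was at 162.1, 253.6 and 228.3 TPM in young and at 81.9, 111.9, 96.5 and 125.7 TPM in PLX5622 libraries (-1.03 ± 0.18, adjusted p = 0.0496). Fcrls, a microglial scavenger receptor, was at 862.7, 918.6 and 968.3 TPM in young and at 569.7, 590.4, 548.4 and 617.4 TPM in PLX5622 libraries (-0.66 ± 0.09, adjusted p = 0.024). The groups were clearly apart in Fcrls and closer in Crybb1. Fcrls was called without young 1 or PLX5622 4 and not without another library (0.0501 to 0.121), and Crybb1 only without young 1 (0.0663 to 0.218).

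The other homeostatic genes kept high levels. P2ry12, the ADP receptor that steers microglial processes, was at 2446 ± 240 TPM in young and 1941 ± 160.9 TPM in PLX5622 libraries (-0.33 ± 0.12, adjusted p = 0.214). Cx3cr1, the fractalkine receptor, was at 469.2 ± 43.3 and 359.5 ± 26.3 TPM (-0.38 ± 0.1, adjusted p = 0.136), and Siglech, a sialic acid receptor, at 990 ± 70.4 and 840.4 ± 53.2 TPM (adjusted p = 0.276). Tmem119 was at 543.3 ± 42.8 and 588.7 ± 73.1 TPM (0.11 ± 0.12, adjusted p = 0.656). None of these 4 differed beyond the threshold. With the libraries centred on their median gene, the homeostatic list median was -0.09.

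The target of the compound, Csf1r, was at 1128, 1292 and 1293 TPM in young and at 967.1, 988.7, 905.8 and 1053 TPM in PLX5622 libraries, a change of -0.34 ± 0.1 that was not called (adjusted p = 0.165). Its ligand gene Csf1 was at 105.2, 136.4 and 175.5 TPM in young and at 147.2, 155.8, 137 and 266 TPM in PLX5622 libraries (0.32 ± 0.24, adjusted p = 0.513), with overlapping groups. Of 14 measured genes in a list set for the receptor's axis, none was called, and 5 were lower and 0 higher at an unadjusted p under 0.05. The list median was -0.12, that of all genes. The list also holds the receptor genes Csf2rb, Csf2rb2, Csf3r and Flt3, which are not of the CSF1 receptor itself, with changes of -0.08 to -0.01. At that threshold 13.8% of all genes tested were lower and 3.51% higher. Pik3r1, a regulatory subunit of phosphoinositide 3-kinase with the smallest p of the list, was at 468.2 ± 62 and 336.3 ± 22.4 TPM (-0.47 ± 0.11, adjusted p = 0.11). Of 18 microglial transcription factors none was called, with 1 higher and 2 lower at an unadjusted p under 0.05. Runx1, with the smallest p, was at 423.9 ± 45.5 and 324.5 ± 26.3 TPM (adjusted p = 0.15).

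Among proliferation genes a single call was made, in the direction of the young. Mki67, the Ki-67 antigen of cycling cells, was at 4.15, 4.89 and 4.25 TPM in young and at 4.72, 5.31, 3.48 and 3.55 TPM in PLX5622 libraries (-0.06 ± 0.18, adjusted p = 0.896). The ranges overlapped. Of 48 cell cycle and replication genes Stmn1 was the only one called, against 0.163% of all genes tested called lower. The list median was -0.06 against -0.12 for all genes. Lmnb1 encodes lamin B1, a protein of the nuclear envelope that is known to be lost from senescent cells, and was listed with the cell cycle inhibitors and p53 targets for that loss. It was at 5.54, 4.82 and 4.5 TPM in young and at 12.8, 10, 12.3 and 11.9 TPM in PLX5622 libraries, a rise of 1.10 ± 0.15 (adjusted p = 0.019). Every PLX5622 library was above the young. Lmnb1 was the only one of the 28 measured members called, and it lost the call without young 2 or PLX5622 1, 3 or 4 (0.0515 to 0.0828). Cdkn1a, the cell cycle inhibitor p21, was at 293.6 ± 36.8 and 390.6 ± 52.8 TPM (0.41 ± 0.13, adjusted p = 0.187).

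Lysosomal, lipid and stress lists held few or no calls. None of 61 lysosomal genes was called, with 3 higher and 8 lower at an unadjusted p under 0.05 and a median of -0.11. At that threshold 3.51% of all genes tested were higher and 13.8% lower, so that the lysosomal counts lay near the background. The same shares apply to the other lists of this paragraph. Lamp1, a lysosomal membrane protein, was at 538.1 ± 39 and 507.7 ± 39 TPM (adjusted p = 0.687), and Ctsc, a lysosomal protease with the smallest p of the list, at 252.2 ± 11.2 and 326.3 ± 12.3 TPM (adjusted p = 0.0966). Of 22 lipid handling genes Lpl was the only one called. None of 26 cholesterol synthesis genes (0 higher and 2 lower at an unadjusted p under 0.05), 38 autophagy genes (1 and 5), 25 glycolysis genes (0 and 6) or 22 TGF-beta genes (0 and 5) was called. Heat shock proteins and chaperones lay lowest of the pathway lists, with 35 of 39 changes negative, 12 lower and 0 higher at an unadjusted p under 0.05, none called, and a median of -0.26. Hspa8, the constitutive HSC70 chaperone, was at 3314, 5456 and 6008 TPM in young and at 1897, 1690, 2261 and 2681 TPM in PLX5622 libraries (-1.18 ± 0.23, adjusted p = 0.0628). None of the 82 ribosomal protein genes (0 and 5) or the 13 mitochondrially encoded genes (0 and 1) was called.

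Set beside the untreated old libraries, the same genes fell into different orders. These values come from a limma model of all 15 libraries. In it, 83 of 13175 genes (0.63%) differed between PLX5622 and AF-high and 19 (0.144%) between PLX5622 and AF-low. Against young, the same model called 8 genes higher and 4 lower in PLX5622 libraries. The 65 calls above come from the 7 libraries alone and are not on the same footing. The PLX5622 libraries are the same as above, so that the comparisons are not independent. The 12 satellite-like gene models took 7.97% to 14.1% of the TPM of the PLX5622 libraries. In AF-high they took 0.07% to 2.12% and in AF-low 0.04% to 2.01%. Mitochondrially encoded genes took 1.57% to 2.36% in PLX5622, 2.37% to 7.66% in AF-high and 2.25% to 2.63% in AF-low libraries. The part of these shares in the contrasts was not tested. The mean of Cxcl13 in untreated old libraries was 3.72 ± 2.7 TPM for AF-high (n = 5) and 12.3 ± 3.01 TPM for AF-low (n = 3). PLX5622 libraries were above AF-high (2.45, adjusted p = 0.0266), and were not called against AF-low (0.72, adjusted p = 0.523). Samd9l, at 3.23 ± 0.43 TPM in AF-high and 6.92 ± 3.21 TPM in AF-low, gave an adjusted p of 0.0266 and 0.402. Lgals3, at 2.09 ± 1.36 and 3.25 ± 0.88 TPM, gave 0.0363 and 0.183, and Tnfsf8, at 0.793 ± 0.71 and 0.632 ± 0.42 TPM, gave 0.0426 and 0.0858. These 4 genes thus had their highest group mean in the PLX5622 libraries, above AF-high beyond the threshold.

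Spp1 was not called against either, at 13.9 ± 8.63 TPM in AF-high and 12.2 ± 6.47 TPM in AF-low (adjusted p = 0.517 and 0.495). Itgax, at 8.47 ± 1.86 and 13.7 ± 6.55 TPM, was likewise close to the PLX5622 mean of 10.6 ± 2.83 TPM (0.646 and 0.736). Further genes, chosen with their values known, were not called against either. Tnf was at 355.3 ± 104.4 and 369.8 ± 131.6 TPM, H2-Q7 at 222.4 ± 62 and 214.1 ± 51.6 TPM, and Lilrb4a at 179.2 ± 24.1 and 255.6 ± 68.9 TPM. Cd44 was at 19.4 ± 22.4 and 38.2 ± 39.3 TPM, Cybb at 14.7 ± 4.32 and 24.2 ± 6.28 TPM, and Hspa8, lower than in young, at 2066 ± 374.3 and 2223 ± 443.2 TPM. Cst7 was at 23.5 ± 10.7 and 17.5 ± 7.6 TPM (0.0751 and 0.0858), and Axl at 14.5 ± 8.9 and 14.3 ± 2.06 TPM (0.16 and 0.329), means below the PLX5622 mean that were not called apart from it. Clec7a was at 18 ± 10.6 TPM in AF-high and 31.7 ± 10.9 TPM in AF-low (0.0549 and 0.581), and Oas1a at 5.91 ± 2.81 and 6.91 ± 4.56 TPM (0.225 and 0.369). Among the falls, Sema6d was at 6.45 ± 0.71 and 6.78 ± 1.72 TPM, above the PLX5622 level (0.0452 and 0.0909), and S1pr1 at 24.2 ± 2.12 and 20.1 ± 1.52 TPM (0.0495 and 0.312). Crybb1 was at 253.4 ± 30.6 TPM in AF-high, above PLX5622 (0.0215), and at 193.3 ± 54.1 TPM in AF-low (0.116).

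**Figure D3:**
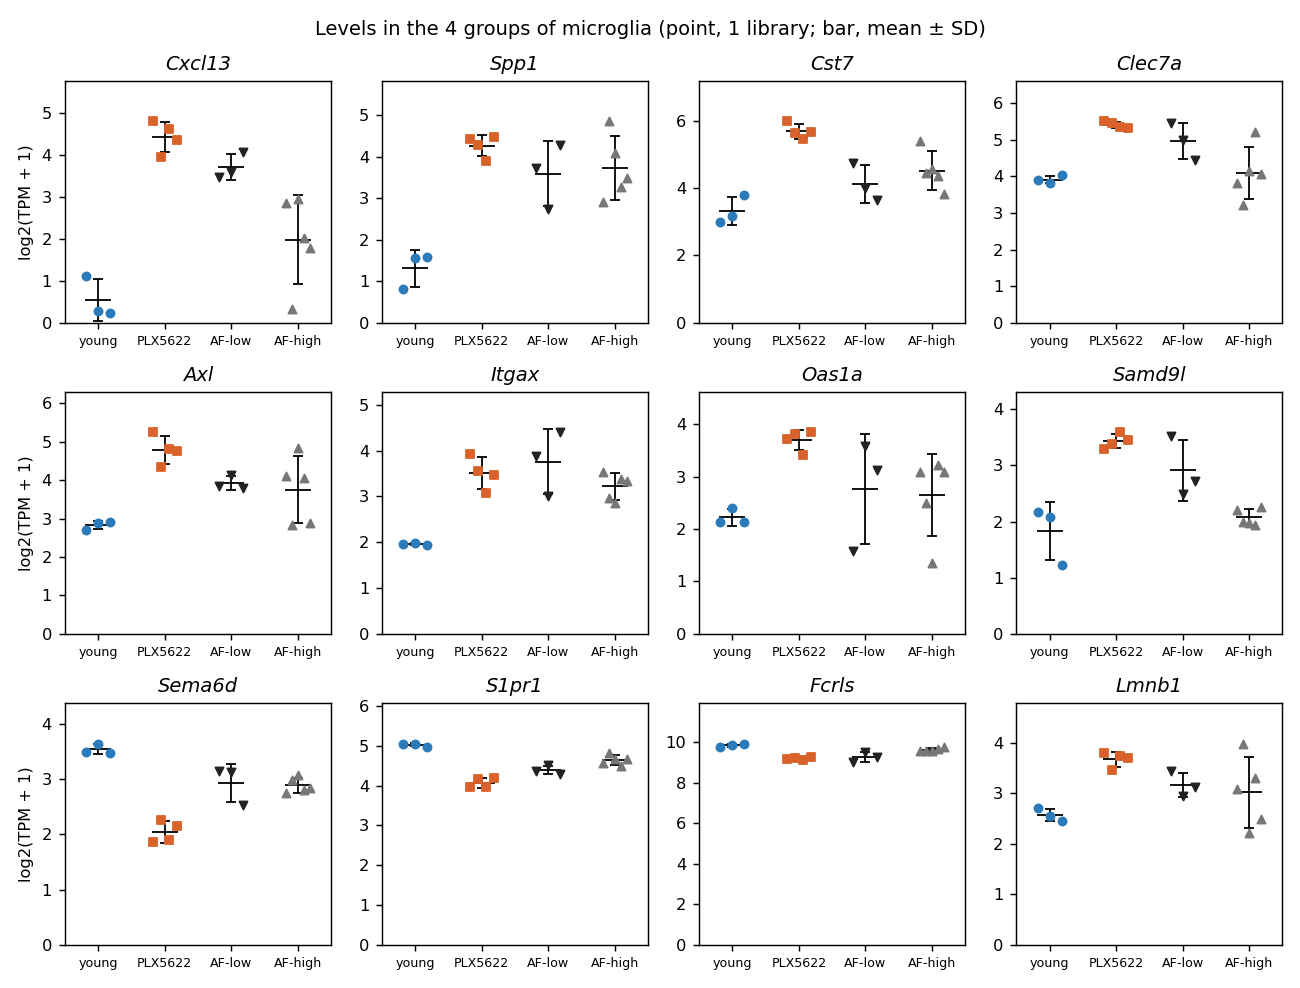
Levels, as log2(TPM + 1) on axes that start at 0, of 12 genes in the young, PLX5622, AF-low and AF-high libraries (1 point per library, bar for mean ± SD). Cxcl13, Spp1 and Cst7 have their lowest group mean in the young libraries, and Sema6d and S1pr1 in the PLX5622 libraries.

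Markers of choroid plexus and astrocytes had much higher levels in young 1 and 2 than in the other 5 libraries. All 11 measured markers of choroid plexus and ependyma had negative changes (median -2.39) and their mean level was 6.23, 5.84 and 3.03 in young 1 to 3 against 2.63 to 2.85 on the log2 scale. With young 1 and 2 left aside the list median was -0.12. Calml4, a calmodulin-like protein, was the only one called and had the largest fall among called genes. It was at 27.1, 20.8 and 7.56 TPM in young and at 1.5, 2.04, 2.07 and 4.23 TPM in PLX5622 libraries (-2.39 ± 0.4, adjusted p = 0.0414), and its call was lost without any library but young 3 (0.0549 to 0.181). All 12 astrocyte markers likewise had negative changes (median -2.06), with none called. At an unadjusted p under 0.05, 11 were lower, against 13.8% of all genes tested. Clu, the secreted chaperone clusterin, was at 77.8, 66.3 and 3.31 TPM in young and at 0.954 to 2.85 TPM in PLX5622 libraries. Aldoc, an astrocyte aldolase with the smallest p of its list, was at 23.1, 22.9 and 3.7 TPM in young and at 0.547 to 1.93 TPM in PLX5622 libraries (adjusted p = 0.072). Young 3 was far below young 1 and 2 in Calml4, Clu and Aldoc, and above the highest PLX5622 library in all 3. The part of such cells in the falls was not tested.

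Macrophages of the brain's borders share many genes with microglia. Of 22 of their markers measured none was called, 10 were lower and 2 higher at an unadjusted p under 0.05, and the median was -0.37. Of all genes tested, 13.8% were lower and 3.51% higher at that threshold. The mean level of the list was 3.66 to 3.68 in young and 3.24 to 3.46 in PLX5622 libraries on the log2 scale (exact two-sided permutation p = 0.0571, 0.171 adjusted over 15 measures). Mrc1, the mannose receptor that defines these cells, was at 18.5, 16.8 and 18.4 TPM in young and at 7.2, 11, 6.33 and 10.5 TPM in PLX5622 libraries. The PLX5622 libraries were all lower, at an adjusted p of 0.0642 (-0.98 ± 0.19). Mrc1 was at 23.3 ± 1.61 TPM in AF-high and 32.2 ± 3.6 TPM in AF-low libraries, and PLX5622 was lower than both (-1.34, adjusted p = 0.00603, and -1.79, adjusted p = 0.00071). Cd163 and Lyve1, further markers, were at 2.11 to 3.48 and 1.31 to 4.29 TPM in young and at 0.534 to 2.4 and 1.57 to 3.01 TPM in PLX5622 libraries. Endothelial markers had a median of -0.57 and oligodendrocyte markers of -0.41, with none called among 12 and 11 (5 and 3 lower, 0 and 0 higher at an unadjusted p under 0.05), and neuronal markers of -0.12, with none called among 11 (1 higher and 1 lower).

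**Figure D4:**
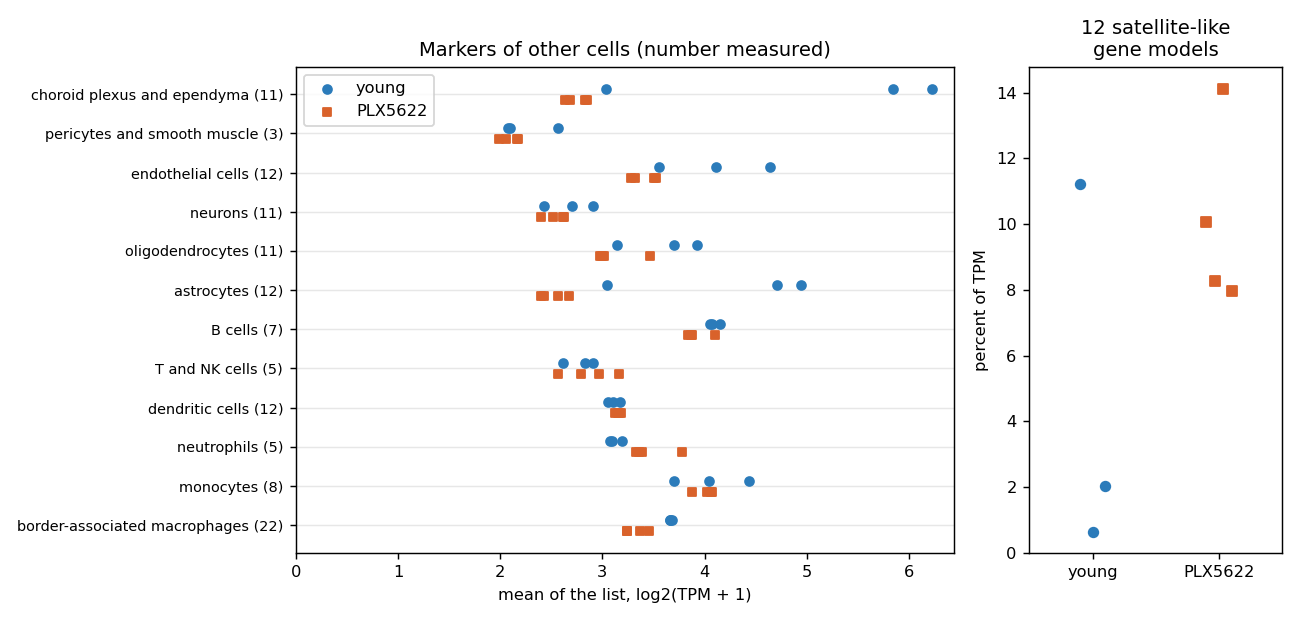
Left, mean level of each list of markers of other cells, as log2(TPM + 1), in each young (circles) and PLX5622 library (squares). Right, the percent of TPM in 12 satellite-like gene models, where 1 young library lies among the PLX5622 libraries and 2 lie far below, and the choroid plexus and astrocyte markers of 2 young libraries lie far to the right of all others.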

How the data were processed

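RNA had been amplified from sorted microglia and sequenced in 15 libraries, of which 7 were compared. The authors deposited TPM per gene symbol (13834 genes, no value of 0). The submitters' processing notes name FastQC 0.11.8, Salmon 1.0.0, DESeq2 and GRCm38 (mm10); the sources used here give neither the filter nor the index nor the handling of strand. TPM keep no record of reads, so the depth is unknown and no counting interval was computed. The 7 libraries summed to 959342 to 963145 TPM, and among all 15 0 pairs of libraries were identical. Of the symbols, 19 read as dates, and those genes were not named.

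Genes with at least 1 TPM in at least 3 of the 7 libraries were tested on log2(TPM + 1) with limma 3.58.1 (R 4.3.3; lmFit and eBayes with a variance trend, two-sided, 5 residual degrees of freedom, no covariate). A model of all 15 libraries gave the AF-high and AF-low contrasts and was otherwise an alternative, since those libraries scatter more. The code was tested on simulated data. The labels call the libraries of each group biological replicates, without saying whether each holds 1 animal or a pool. The p-values reflect only how these libraries vary, and the technical part of that was not separated. The replicate numbers were not taken as pairs. Library measures were compared with exact permutation tests over the libraries (scipy 1.17.1).

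Named genes are the 12 largest rises and 12 largest falls (called, at least 5 TPM on average in the higher group, no overlap, without numbered models), up to 4 called members of each list or else the smallest p, and a short list always given. The groups, the lists and the 12 satellite-like models were chosen with earlier results of these data known. Gene coordinates are from GENCODE M21 and promoters from RefSeq (GRCm38.p6). One of the microglial marker genes is not reported here. Alternatives were other pseudocounts, filters, scalings, models, weights and left-out libraries.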

Additional observations from a re-analysis of the deposited data

Results flagged for a closer look

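In 10 cases 1 PLX5622 library stood apart from the other 3 by more than Dixon's criterion for 4 values allows, among 77 named genes and 15 library measures tested. Chance flags about 1 in 20 such groups.

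St8sia6 was at 56.6 TPM in PLX5622 1, against 35.4 to 37.6 TPM in the others, and all 4 were above the young. Mrpl55 was at 5.09 TPM in PLX5622 1, against 5.79 to 5.91 TPM. Jund was at 57.6 TPM in PLX5622 4, against 42 to 42.8 TPM, nearest to the young libraries. Mospd3 was at 7.01 TPM in PLX5622 4, against 5.52 to 5.73 TPM. Csf1 was at 266 TPM in PLX5622 4, against 137 to 155.8 TPM. Ski, a corepressor of TGF-beta signalling with the smallest p of its list, was at 85.3 TPM in PLX5622 3, against 110.7 to 114.2 TPM. Siglech was at 919.3 TPM in PLX5622 2, against 806.5 to 825.3 TPM.

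Among the lists of other cells, neutrophil markers had a mean log2 level of 3.78 in PLX5622 3, against 3.33 to 3.38. B cell markers had a mean of 4.1 in PLX5622 2, against 3.84 to 3.88. Oligodendrocyte markers had a mean of 3.46 in PLX5622 2, against 2.98 to 3.01.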

How the results depend on the processing

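Against 65 calls (44 higher, 21 lower), the model of all 15 libraries gave 12 (8 and 4), of which 10 were among the 65 (Cxcl13, Spp1, Cst7, Hcar2, Ly9, Samd9l, Ifi204, Ildr2, Sema6d and S1pr1), and array weights gave 133 (72 and 61). Quantile normalization gave 70 higher and 14 lower (83.3% higher), median-centred libraries 77 and 12, rescaling without numbered models, mitochondrial and ribosomal genes 66 and 13 (83.5%), and rescaling without the satellite-like models, added after the data were seen, 61 and 17 (78.2%). Leaving out 1 library gave 17 to 115 calls, 16 to 36 higher and 1 to 79 lower. With young 1 and 2 left aside limma made 13 calls, 13 higher and 0 lower. Pseudocounts of 0.1 and 5, no filter and a filter at 5 TPM gave 50 to 76 calls. The cause of these shifts was not tested. No setting turned the sign of a gene called with all 7 libraries, wherever that gene still passed the filter. Leaving out libraries or changing the pseudocount or filter could not turn it, since the groups did not overlap in any called gene.

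The medians of the disease-associated (0.17 to 0.48), interferon (0.2 to 0.41), chemokine (0.15 to 0.37) and immune receptor (0.1 to 0.25) lists were positive under every setting for which they were computed, and those of the homeostatic (-0.3 to -0.09), heat shock (-0.33 to -0.14) and border macrophage lists (-0.4 to -0.25) negative. Several negative medians near 0, among them those of the CSF1 receptor, lysosomal, autophagy and transcription factor lists, turned slightly positive when libraries were median-centred (0.01 to 0.07).

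A replicate block, pairing young 1 to 3 with PLX5622 1 to 3, gave 1 call, higher, and 0 lower, with 2 residual degrees of freedom. Same-numbered libraries did not deviate together (correlations across genes of 0.03, -0.01 and -0.03), and not every library correlated best with its own number. The numbers were therefore not taken as pairs. Such correlations over all genes could miss a pairing that moves only some genes, which was not tested. Unknown depth limits what can be said of genes under about 5 TPM.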

Other observations

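The remaining called genes were named after their values were seen. Rxrg, a retinoid X receptor, was at 0.827 ± 0.19 TPM in young and 3.88 ± 1.1 TPM in PLX5622 libraries (adjusted p = 0.0378). Fgl2, a secreted fibrinogen-like protein, was at 14.5 ± 2.83 and 26.9 ± 1.59 TPM (adjusted p = 0.0414), and Pstpip1, an adaptor of the actin cytoskeleton, at 3.22 ± 0.29 and 7.48 ± 0.43 TPM (adjusted p = 0.024). Dlg5, a scaffold protein, was at 1.93 ± 0.45 and 6.78 ± 1.56 TPM (adjusted p = 0.024), Ctla2b, a cathepsin inhibitor-like protein, at 41.5 ± 9.73 and 88.3 ± 15.6 TPM (adjusted p = 0.0392), and Lrguk at 2.47 ± 0.18 and 5.71 ± 0.93 TPM (adjusted p = 0.04998). The models Gm1966 and AC147512.1 were higher too, 2.19-fold and 2.6-fold on the log2(TPM + 1) scale.

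The following genes fell. Ndufb11, a subunit of respiratory complex I, went from 51.4 ± 3.46 to 33.5 ± 2.27 TPM (adjusted p = 0.0464), Snrpc, a protein of the U1 splicing particle, from 52.1 ± 2.47 to 34.7 ± 0.57 TPM (adjusted p = 0.0414), Mtx1, a protein of mitochondrial import, from 62 ± 7.01 to 40.3 ± 1.12 TPM (adjusted p = 0.0496), and Prps2, an enzyme of nucleotide synthesis, from 35.2 ± 4.17 to 20.2 ± 1.3 TPM (adjusted p = 0.0378). Rgs7bp went from 3.55 ± 0.13 to 0.876 ± 0.28 TPM (adjusted p = 0.019), Tead1, a transcription factor of the Hippo pathway, from 1.73 ± 0.53 to 0.266 ± 0.06 TPM (adjusted p = 0.0414), Sfmbt2 from 2.9 ± 0.68 to 0.556 ± 0.31 TPM (adjusted p = 0.0378) and 2810025M15Rik from 56.1 ± 14.3 to 19.4 ± 5.6 TPM (adjusted p = 0.0296). None of the genes in these paragraphs kept its call with each of the 7 libraries left out in turn.

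Promoter windows of 3 further lists were read for a motif each, on both strands. The motif TGACNNNGC occurred in 5 of 29 oxidative stress genes with an entry (17.2%, against 13.5% of tested genes with one), TCACNCCAC in 1 of 19 cholesterol synthesis genes (5.26%, against 1.15%) and TTTGAA in 10 of 37 cell cycle genes (27%, against 13.8%). Of the called members of these lists, the entry of Cybb did not hold the motif, and Stmn1 had no entry.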
